A study of Arabidopsis thaliana with 72 samples.

Results

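The genes described are the auxin response and lateral organ boundaries genes of Arabidopsis thaliana that the array annotation names by family symbol. They were chosen by a rule on names, with earlier results of these data known. A probe set had to list 1 gene, and its symbol had to be IAA, ARF, SAUR, PIN, LAX or LBD followed by a number. Of 13513 probe sets that list 1 gene, 9 met this rule. They were 7 Aux/IAA genes, IAA18 (AT1G51950), IAA20 (AT2G46990), IAA29 (AT4G32280), IAA30 (AT3G62100), IAA31 (AT3G17600), IAA33 (AT5G57420) and IAA34 (AT1G15050), and 2 LBD genes, LBD16 (AT2G42430) and LBD29 (AT3G58190). In RefSeq 109 Arabidopsis genes carry such a symbol, so the 9 are a small sample of these families. No ARF, SAUR, PIN or LAX gene was among them, so the auxin carriers and the ARF transcription factors were not analysed here.

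Auxin acts in part by removing repressors. Aux/IAA proteins bind ARF transcription factors and hold auxin-responsive genes down. When auxin joins an Aux/IAA protein to a TIR1/AFB F-box receptor, the repressor is degraded and the ARF targets are transcribed. IAA20, IAA30, IAA31, IAA33 and IAA34 lack an intact degron, the stretch the receptor binds, and are counted as non-canonical members. LBD16 and LBD29 are transcription factors downstream of ARF7 and ARF19 in the initiation of lateral roots.

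The study asked how gene expression changes at low atmospheric pressure. Plants of the accession Wassilewskija, grown for 10 days and kept in constant light, were held for 1, 3, 6, 12, 48 or 72 h at 10 kPa total pressure with 2.1 kPa oxygen, or at 97 kPa with 21 kPa oxygen, both with 0.05 kPa carbon dioxide. Total pressure and oxygen therefore changed together and cannot be told apart. For the control, 1 label field states 101 kPa in place of 97 kPa. Roots and shoots were measured on 72 ATH1 arrays, 24 groups of 3. Each replicate was 1 tube of about 12 pooled plants from a separate chamber, and of 43 tubes 29 were used for both tissues.

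The tissues matched their labels. The summed signal of 6 photosynthesis genes was 2452 to 21729 in roots and 116993 to 201050 in shoots, and that of 3 root genes was 22420 to 44706 in roots and 543 to 2689 in shoots. Arrays at 48 and 72 h stood apart: in roots their replicate correlations were 0.856 to 0.926, against 0.909 to 0.961 at 1 to 12 h. At 48 and 72 h the GAPDH 3′ to 5′ signal ratio, a sign of RNA integrity, was 36.1 to 147 in shoots at 10 kPa and 10.1 to 25.4 in shoots at 97 kPa. Array numbers ran with pressure, apart from 4 arrays at 72 h, so the order of the arrays and pressure cannot be told apart at the other times. At 97 kPa they also ran with time, from 12483 to 12494 at 1 and 3 h and from 12391 to 12448 at 48 and 72 h. Late minus early levels at 97 kPa therefore cannot be told apart from the order of the arrays.

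Values are MAS5 signal, a linear intensity scaled to the same trimmed mean of 500 on every array. Differences are on the scale log2(signal + 8.90), which understates the change of dim genes. A probe set was tested where it reached the 40th percentile of its array on at least 3 arrays, and a call means a limma p below 0.05 after Benjamini-Hochberg adjustment over all probe sets of the fit. IAA18 reached that percentile on 36 of 36 root and 36 of 36 shoot arrays, and LBD16 on 35 root arrays and 2 shoot arrays. IAA30 reached it on 18 and 5, IAA33 on 18 and 0, IAA34 on 8 and 1, LBD29 on 4 and 0, IAA29 on 3 and 0 and IAA31 on 2 and 0, while IAA20 reached it on none of the 72. All 9 but IAA20 and IAA31 were tested in roots, and only IAA18 and IAA30 were tested in shoots. IAA20 ranged from 3.76 to 114 in roots and from 1.94 to 131 in shoots, and IAA31 from 8.59 to 166 in roots and from 2.28 to 93.8 in shoots.

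**Figure D1:**
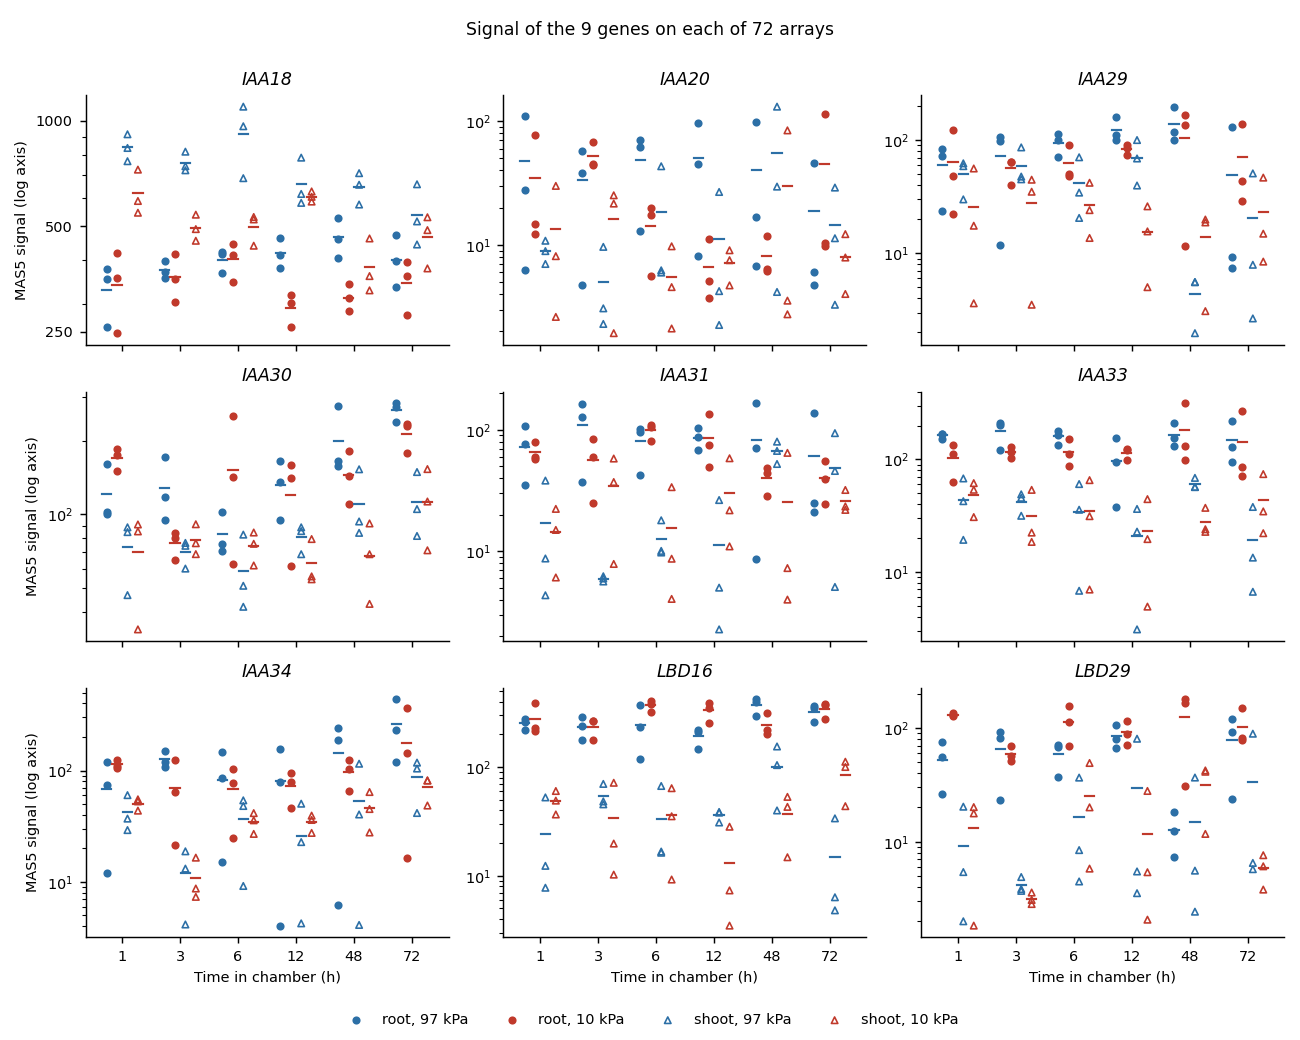
MAS5 signal (log axis) of the 9 genes on each of the 72 arrays by time in the chamber (h): circles are root arrays, triangles shoot arrays, blue 97 kPa, red 10 kPa, and short lines are means of 3 arrays. The IAA18 triangles at 97 kPa lie above those at 10 kPa at 1, 3, 6 and 48 h, and the LBD16 circles lie between 119 and 423, above nearly all its triangles.

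IAA18 was lower at 10 kPa in shoots. A stabilised form of this repressor is known to reduce lateral rooting. Its shoot signal at 1 h was 836, 914 and 766 at 97 kPa and 725, 590 and 546 at 10 kPa. At 3 h it was 741, 816 and 722 at 97 kPa and 454, 490 and 539 at 10 kPa. At both times every 10 kPa array lay below every 97 kPa array, as in 10.6% of probe sets in shoots at 1 h and 14.3% at 3 h.

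At 6 h the shoot signal of IAA18 was 1096, 685 and 964 at 97 kPa and 440, 531 and 523 at 10 kPa. At 12 h it was 583, 784 and 618 against 588, 606 and 628. The groups were apart at 6 h, as in 14.5% of probe sets, and overlapped at 12 h. At 48 h the values were 576, 656 and 708 at 97 kPa against 461, 360 and 328 at 10 kPa, and at 72 h they were 443, 658 and 516 against 379, 487 and 530. The groups were apart again at 48 h, as in 15.3% of probe sets, and overlapped at 72 h.

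The pressure effect on IAA18 in shoots, 10 kPa minus 97 kPa, was -0.61 ± 0.17 (SE) on the log2 scale at 3 h (adjusted p = 0.0279), -0.85 ± 0.17 at 6 h (adjusted p = 0.000717) and -0.75 ± 0.17 at 48 h (adjusted p = 0.00145), each from 3 arrays a group. As group means these were 759 ± 49.5 (SD, n = 3) against 495 ± 42.6 at 3 h, 915 ± 210 against 498 ± 50.5 at 6 h and 647 ± 66.4 against 383 ± 69.5 at 48 h. The differences at 1 h (-0.44, adjusted p = 0.160), 12 h (-0.11, adjusted p = 0.826) and 72 h (-0.20, adjusted p = 0.442) were not called. At 12 h the 95% interval, -0.46 to 0.24, did not reach the effects measured at 3, 6 and 48 h. It overlapped the interval at 3 h, -0.96 to -0.26, and 12 h was not tested against the other times. The call at 3 h was lost (adjusted p 0.0689 to 0.147) without 10 kPa replicate 1 or 2 or without 97 kPa replicate 1, 2 or 3. The calls at 6 and 48 h held under every alternative run. Among all probe sets tested in shoots, 2.86% were called lower at 3 h, 5.92% at 6 h and 13.4% at 48 h. The GAPDH ratio in shoots at 48 h was 47.2 to 147 at 10 kPa and 10.1 to 25.4 at 97 kPa, and its part in the result was not tested.

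Averaged over the 6 times, IAA18 in shoots was lower at 10 kPa by -0.49 ± 0.070 (adjusted p = 6.8e-07), beside 17.6% of probe sets called lower. Its level in shoots also differed between late (48 and 72 h) and early (1 and 3 h) arrays, by -0.44 at 97 kPa (adjusted p = 0.00779) and by -0.39 at 10 kPa (adjusted p = 0.0125). For these late minus early levels 11.1% of probe sets were called lower at 97 kPa and 17.3% at 10 kPa. The call at 97 kPa was lost without replicate 1 (adjusted p = 0.117), and that at 10 kPa without replicate 1, 2 or 3 (adjusted p 0.0573 to 0.0669). The pressure effect itself did not pass the test of late minus early, at 0.046 (95% interval -0.30 to 0.39, adjusted p = 0.890).

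In roots IAA18 was dimmer than in shoots, from 257 to 527 at 97 kPa and from 247 to 446 at 10 kPa. At 12 h its signal was 379, 414 and 464 at 97 kPa and 301, 317 and 258 at 10 kPa, and at 48 h it was 527, 460 and 406 against 286, 311 and 341. The groups did not overlap at these 2 times, where the effects of -0.51 (adjusted p = 0.107) and -0.55 (adjusted p = 0.0752) missed the threshold. In roots 18.0% of probe sets had all 3 values at 10 kPa below all 3 at 97 kPa at 12 h, and 14.4% did at 48 h. The mean effect over the 6 times was -0.22 ± 0.083 (adjusted p = 0.0418), beside 18.2% of probe sets called lower. That call was lost (adjusted p 0.0611 to 0.135) with quantile normalization, with no filter, without replicate 2 or 3 at 10 kPa, and without replicate 2 or 3 at 97 kPa.

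The test of the difference between tissues, root minus shoot pressure effect, gave 0.27 ± 0.10 for IAA18 (95% interval 0.066 to 0.48, adjusted p = 0.0437), that is, a smaller decrease in roots. Of all probe sets 11.1% were called higher in this test. IAA18 was the only one of 7 tested members called. The call did not survive leaving out any one of the 6 replicates (adjusted p 0.0604 to 0.142), quantile normalization (adjusted p = 0.0830) or no filter (adjusted p = 0.0547).

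LBD29, a regulator of lateral root initiation, gave the only call of a pressure effect at a single time in roots. At 48 h its root signal was 18.1, 12.4 and 7.27 at 97 kPa and 166, 180 and 31.0 at 10 kPa, so the groups did not overlap and 1 of the 3 arrays at 10 kPa was far below the other two. Of all probe sets in that comparison, 8.81% had all 3 values at 10 kPa above those at 97 kPa. The group means were 12.6 ± 5.42 (SD, n = 3) and 125 ± 82.1. The effect was 2.38 ± 0.59 on the log2 scale (95% interval 1.18 to 3.59, adjusted p = 0.00642), in a comparison where 5.33% of probe sets were called higher. LBD29 entered the root fit through 4 arrays at 10 kPa, 2 of them at 48 h, and 0 of 18 at 97 kPa, so it was tested only through the group where it is high, and the effect and its adjusted p are a description. In the fit with no filter on any probe set the adjusted p was 0.0062. The effect lay near the low end of the signal range: the values at 97 kPa fell between percentiles 4.85 and 12.0 of their arrays. The size therefore moved with the pseudocount, to 1.13 with a higher one and 3.05 with none.

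The call for LBD29 at 48 h was lost without 10 kPa replicate 2 (adjusted p = 0.0562). It was not made when only those 6 arrays were fitted, where LBD29 reached the filter on too few arrays to be tested, nor under the stricter filter for the same reason. In the same root arrays the summed signal of the photosynthesis genes was 12064 to 21729 at 10 kPa and 4039 to 11563 at 97 kPa, and the GAPDH ratio was 92.2 to 187 against 191 to 354. LBD29 itself was at 89.1 or below on every shoot array, and the part of these differences in the result was not tested. A change in the share of cells of a type and a change in RNA per cell cannot be told apart in bulk tissue.

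At the other times LBD29 differed less between the groups. Its root mean at 97 kPa was 12.6 at 48 h and 52.5 to 84.4 at the other times. The mean at 10 kPa was 125 at 48 h, within the 59.0 to 131 of the other times. The 48 h control group thus had the lowest mean, while the 10 kPa mean was within the range of the others. That 10 kPa mean joins 31.0 with 166 and 180, which lay above every other root array. Which side made the difference was not tested. At 1 h its root signal was 26.2, 75.9 and 55.3 at 97 kPa and 135, 131 and 127 at 10 kPa. All 3 arrays at 10 kPa lay above the 97 kPa arrays, yet the effect of 1.28 ± 0.59 was not called (adjusted p = 0.298), and 11.9% of probe sets showed such a separation upward. At 6 h it was 37.0, 71.5 and 67.9 against 113, 68.9 and 155, an effect of 0.82 (adjusted p = 0.465). At 3, 12 and 72 h the effects were 0.018, 0.10 and 0.53, with adjusted p from 0.672 to 0.994. The mean over the 6 times was 0.86 ± 0.24 (adjusted p = 0.00614), beside 13.1% of probe sets called higher, and it was lost without 10 kPa replicate 2 (adjusted p = 0.0512). The same limit of the filter holds for this mean, whose adjusted p with no filter was 0.00617.

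LBD16, which acts beside LBD29 in founding lateral roots, was higher in roots than in shoots. No pressure effect on it was called in roots under the main setting. Its root signal at 6 h was 119, 376 and 232 at 97 kPa and 381, 324 and 408 at 10 kPa, which overlap. At 12 h it was 220, 211 and 146 at 97 kPa and 352, 393 and 256 at 10 kPa, which do not. The effects were 0.73 ± 0.30 at 6 h (adjusted p = 0.127) and 0.77 ± 0.30 at 12 h (adjusted p = 0.0930), so neither was called. At 12 h 12.5% of probe sets had all 3 values at 10 kPa above those at 97 kPa. The 6 h effect was 1.11 without 97 kPa replicate 2, and it was then called (adjusted p = 0.0182).

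At 48 h the root signal of LBD16 was 399, 293 and 423 at 97 kPa and 318, 221 and 202 at 10 kPa, which overlapped. The effect was -0.58 ± 0.30 (adjusted p = 0.214), opposite in sign to that of LBD29 in the same arrays. At 1, 3 and 72 h the effects were 0.083, -0.0025 and 0.089, with adjusted p from 0.905 to 0.998. The mean over the 6 times was 0.18 (95% interval -0.067 to 0.43, adjusted p = 0.279). LBD16 was not tested in shoots, where it ranged from 3.48 to 155. From lowest to highest, its shoot signal at 72 h was 4.81, 6.34 and 33.8 at 97 kPa and 43.7, 100 and 112 at 10 kPa. These did not overlap, as in 15.7% of probe sets tested in shoots, and the difference was called higher with no filter. At 12 h the values at 10 kPa, 3.48 to 28.3, lay below those at 97 kPa, 31.0 to 38.7, as in 12.3% of probe sets.

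IAA30, a non-canonical repressor that is auxin-inducible, was higher at the late times in roots at 97 kPa. At 97 kPa its root signal was 160, 100 and 102 at 1 h and 95.0, 171 and 118 at 3 h. It was 158, 277 and 165 at 48 h and 285, 238 and 275 at 72 h. The 48 h arrays overlapped those at 1 and 3 h and the 72 h arrays did not. The share of probe sets with such a separation was not computed. At 10 kPa it was 150, 175 and 184 at 1 h, 84.2, 79.9 and 65.2 at 3 h, 181, 110 and 143 at 48 h and 235, 178 and 229 at 72 h.

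The late minus early level of IAA30 in roots was 0.86 ± 0.27 at 97 kPa (adjusted p = 0.0183), beside 11.5% of probe sets called higher. At 10 kPa it was 0.57 ± 0.27 and was not called (adjusted p = 0.111). The call at 97 kPa was lost with quantile normalization (adjusted p = 0.1001) and without replicate 1, 2 or 3 (adjusted p 0.0578 to 0.108). The summed signal of the photosynthesis genes in these roots was 3440 to 5254 at 1 and 3 h and 4039 to 15500 at 48 and 72 h. The GAPDH ratio was 81.0 to 179 at 1 and 3 h and 191 to 1312 at 48 and 72 h, without overlap, and the part of either in the result was not tested.

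No pressure effect on IAA30 was called in either tissue. In roots the effects ran from -0.65 at 3 h to 0.63 at 6 h, with standard errors of 0.38 and adjusted p from 0.350 to 0.829. In shoots they ran from -0.64 at 48 h to 0.33 at 6 h, with standard errors of 0.36 and adjusted p from 0.209 to 0.985. The intervals in roots that lay farthest from 0, at 3 and 6 h, reached -1.43 and 1.41.

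IAA29, a repressor known as a target of PIF factors in shade and warmth, was dim and scattered. In roots it ranged from 7.42 to 198 at 97 kPa and from 11.7 to 166 at 10 kPa, with effects from -0.82 at 48 h to 0.95 at 72 h and standard errors of 0.78. None was called (adjusted p 0.527 to 0.997). IAA29 was not tested in shoots, where it ranged from 1.97 to 100.3 at 97 kPa and from 3.09 to 56.2 at 10 kPa, with no array at the 40th percentile.

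IAA33 and IAA34, both non-canonical, were tested in roots only. The root signal of IAA33 had its lowest, median and highest values at 37.5, 156 and 220 at 97 kPa and at 63.3, 115 and 319 at 10 kPa. Its pressure effects ran from -0.68 at 1 h to 0.41 at 12 h, with adjusted p from 0.567 to 0.994. At 1 h the 3 values at 97 kPa were 151 to 170 and the 3 at 10 kPa were 63.3 to 135, which do not overlap, and 13.6% of probe sets separated downward in this way. IAA34 ranged from 4.05 to 438 at 97 kPa and from 16.4 to 367 at 10 kPa in roots, the widest spread between arrays of the 7 tested genes, with standard errors of 0.93 and adjusted p from 0.553 to 0.988.

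**Figure D2:**
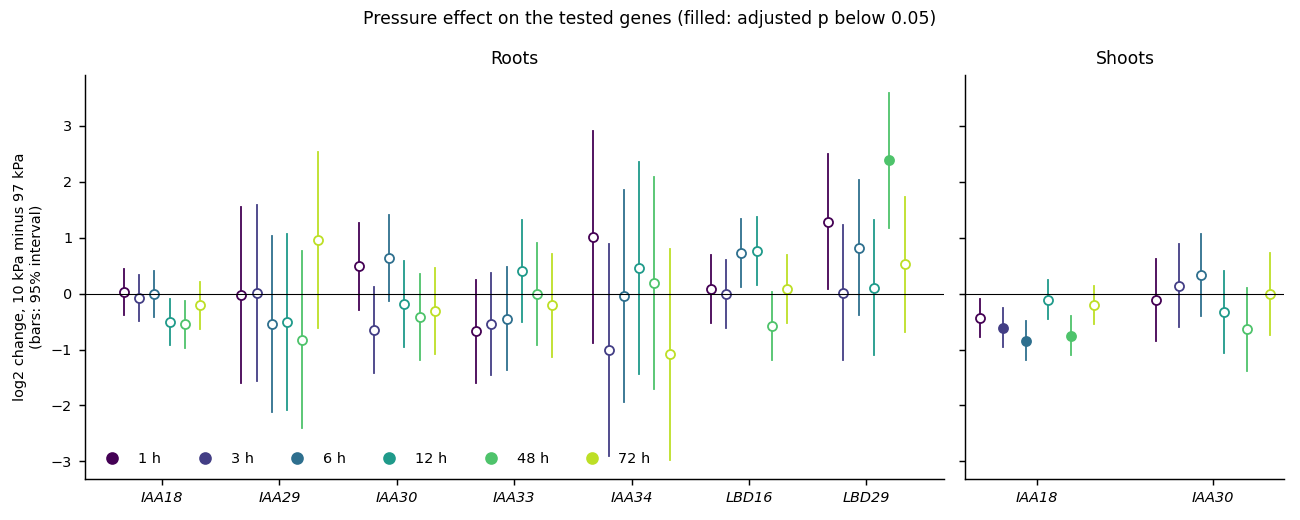
Pressure effect (log2 change, 10 kPa minus 97 kPa) on the 7 genes tested in roots and the 2 tested in shoots at 1, 3, 6, 12, 48 and 72 h, with bars for the 95% interval and filled points for an adjusted p below 0.05. The filled points are LBD29 at 48 h in roots (2.38) and IAA18 at 3, 6 and 48 h in shoots (-0.61, -0.85 and -0.75).

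Counted over the 9 genes, few pressure effects passed the test. In roots 0 of 7 were called at 1, 3, 6, 12 and 72 h, and 1 of 7, LBD29, was called at 48 h, a gene that passed the filter through 10 kPa arrays alone. At an unadjusted p below 0.05 the limma counts in roots were 1, 0, 1, 2, 2 and 0 at 1, 3, 6, 12, 48 and 72 h. The share of all probe sets called in either direction in roots was 3.56%, 6.00%, 9.19%, 12.0%, 11.5% and 8.16% at these times. In shoots 1 of 2, IAA18, was called at 3, 6 and 48 h and 0 of 2 at 1, 12 and 72 h, where 4.36%, 5.40%, 11.7%, 7.41%, 23.7% and 19.8% of probe sets were called from 1 to 72 h. With 7 and 2 genes tested, these shares correspond to fewer than 1 gene in each comparison. The late minus early difference in the pressure effect was called for 0 of 7 genes in roots and 0 of 2 in shoots (limma, 0 and 0 with an unadjusted p below 0.05), beside 5.18% and 18.2% of probe sets called.

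Of the 7 genes tested in both tissues together, 6 were higher in roots than in shoots at 97 kPa and 1, IAA18, was lower. In this comparison 53.0% of probe sets were called higher in roots and 26.8% lower, and the median over all was 0.34 on the log2 scale. A probe set that is dim in shoots passed the filter through its root arrays, and each gene but IAA18 and IAA30 had 2 or fewer shoot arrays at the 40th percentile, so the count of 6 and the tests that follow for those genes are descriptions of the filtered set. With no filter the adjusted p was 5.6e-18 for LBD16, 1.8e-11 for IAA33 and 1.2e-06 for LBD29, and 9 of 9 genes were called. With the filter 79.9% of all probe sets were called in either direction, so a call is common among probe sets at large. The share with no filter is not given here.

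The difference was 2.65 ± 0.20 (SE) for LBD16 (adjusted p = 3.4e-18), 1.93 ± 0.22 for IAA33 (adjusted p = 1.3e-11) and 1.52 ± 0.28 for LBD29 (adjusted p = 2.0e-06). At 97 kPa LBD16 had its lowest, median and highest signal at 119, 262 and 423 in roots and at 4.81, 38.4 and 155 in shoots. LBD29 was at 7.27, 67.4 and 119 in roots and at 2.00, 5.52 and 89.1 in shoots. LBD16 overlapped between the tissues only through its highest shoot value, while LBD29 overlapped widely. IAA33 was at 37.5, 156 and 220 in roots and at 3.07, 37.0 and 68.5 in shoots.

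The other members with a higher root level were IAA34, IAA29 and IAA30, at 1.22, 1.01 and 0.76. IAA18 was lower in roots by -0.84 ± 0.073 (adjusted p = 9.0e-16), with 257, 398 and 527 in roots and 443, 715 and 1096 in shoots as its lowest, median and highest signal at 97 kPa. Array medians were 190 to 251 in roots and 155 to 205 in shoots. The GAPDH ratio at 97 kPa was 81.0 to 1312 in roots and 10.1 to 26.2 in shoots. At 10 kPa it was 58.9 to 433 in roots and 10.5 to 147 in shoots. The part of this ratio in the tissue differences was not tested. With quantile normalization the median over all probe sets was 0.10 and the share of calls that were higher in roots was 55.7%, against 66.4% without it. The calls for IAA29 (adjusted p = 0.121) and IAA30 (adjusted p = 0.1004) were then lost. That for IAA34 was lost without 97 kPa replicate 3 (adjusted p = 0.0574).

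At 10 kPa the same 6 genes were higher in roots and IAA18 was lower. The root minus shoot level there was 2.83 for LBD16, 2.36 for LBD29, 1.71 for IAA33, 1.40 for IAA29, 0.98 for IAA34, 0.79 for IAA30 and -0.56 for IAA18, and all 7 were called. LBD16, LBD29, IAA33, IAA29 and IAA34 had 0 or 1 shoot array per pressure at the 40th percentile, so their calls here are descriptions too, and with no filter 8 of 9 genes were called. Among all probe sets tested with the filter, 78.6% were called, 50.8% higher in roots and 27.8% lower, with a median of 0.30. With quantile normalization that median was 0.082 and the share of calls that were higher in roots was 55.1% against 64.7%, and IAA34 was not called (adjusted p = 0.163). IAA34 was also not called without 10 kPa replicate 1 (adjusted p = 0.0511), where LBD29 and IAA29 did not reach the filter and 4 of the 7 calls were made. LBD29 had the largest change in the tissue difference between pressures, 0.84 ± 0.39, which was not called (adjusted p = 0.113) but was called with a higher pseudocount (adjusted p = 0.0261).

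**Figure D3:**
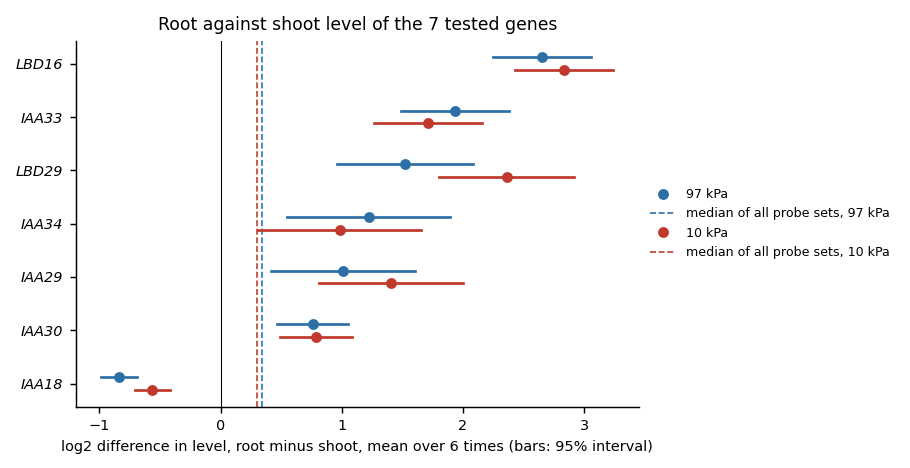
Difference in level between roots and shoots (log2, root minus shoot, mean over the 6 times, bars for the 95% interval) of the 7 tested genes at 97 kPa (blue) and 10 kPa (red), with the median of all probe sets as dashed lines (0.34 and 0.30). LBD16 lies farthest to the right (2.65 and 2.83), and IAA18 alone lies left of 0 (-0.84 and -0.56).

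Ordered by mean signal over the 12 groups of a tissue, neighbouring groups nearly always overlapped. Sorting by mean sets like groups side by side, so this overlap follows from the order and does not show that the groups are alike. The share of separated neighbours over all probe sets was not computed. For IAA18 and LBD16 none of the 11 pairs of neighbours in either tissue were separated. In roots the mean of IAA18 ran from 292 at 12 h and 10 kPa to 464 at 48 h and 97 kPa, and in shoots from 383 at 48 h and 10 kPa to 915 at 6 h and 97 kPa. LBD16 in roots ran from 192 at 12 h and 97 kPa to 372 at 48 h and 97 kPa. For LBD29 in roots 1 of 11 pairs was separated, and its mean ran from 12.6 at 48 h and 97 kPa to 131 at 1 h and 10 kPa. For IAA30 in roots 1 of 11 was separated, and its mean ran from 76.4 at 3 h and 10 kPa to 266 at 72 h and 97 kPa.

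Other genes of the auxin pathway were followed from lists of genes of synthesis, conjugation, perception, transport and response, of which 17 had a named probe set and 13 were tested in roots. No gene of synthesis was called at any time in either tissue (2 of 4, YUC2 and YUC6, were tested in roots and YUC2 alone in shoots), nor was the 1 gene of perception, SKP2A. The unadjusted limma counts below 0.05 for synthesis were 1 gene at 6 h and 1 at 48 h in roots and 1 at 48 h in shoots, and for SKP2A they were 1 at 1 h and 1 at 3 h in roots.

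Of 5 conjugation genes tested in each tissue, 3 rose in roots and 4 fell in shoots at 10 kPa in the mean over the 6 times, beside 13.1% of probe sets called higher in roots and 17.6% called lower in shoots. GH3 enzymes join auxin to amino acids and several are induced by auxin themselves. GH3.3 in roots had its lowest, middle and highest signal at 6.48, 16.5 and 20.4 at 97 kPa and at 180, 227 and 231 at 10 kPa after 1 h. The effect was 3.29 ± 0.66 (adjusted p = 0.00146). The groups did not overlap, and 11.9% of probe sets in roots separated upward in this way at 1 h. At 6 h and 12 h the effect was 2.13 (adjusted p = 0.0340) and 2.11 (adjusted p = 0.0293). The mean effect on GH3.3 over the 6 times was 1.78 (adjusted p = 2.1e-06). The arrays on which GH3.3 reached the filter are not given here by pressure. If these were mainly arrays at 10 kPa, its effects and adjusted p in roots are descriptions, as for LBD29. With no filter on any probe set the limma adjusted p was 0.000743 at 1 h, 0.0290 at 6 h and 0.0250 at 12 h.

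The size for GH3.3 depended on the pseudocount, since at 97 kPa it was near the low end. At 1 h it ran from 1.73 to 4.02 over the 13 alternatives that tested it, all called. The same limit of the filter holds for the alternatives that kept a filter. The calls at 6 and 12 h were lost with no pseudocount. The call at 6 h was also lost without 10 kPa replicate 2 or 3 or 97 kPa replicate 2 or 3 (adjusted p up to 0.164). That at 12 h was also lost without 10 kPa replicate 1, 2 or 3 or 97 kPa replicate 3 (adjusted p up to 0.180). In shoots GH3.3 was called at no single time, but its mean over the 6 times was -0.65 ± 0.14 (adjusted p = 0.00047). The root minus shoot pressure effect was 2.43 ± 0.28 (95% interval 1.87 to 2.99, adjusted p = 4.0e-10).

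WES1, the GH3.5 enzyme, was lower at 10 kPa in shoots, at -0.80 at 3 h (adjusted p = 0.0308), -0.998 at 6 h (adjusted p = 0.00271), -0.86 at 48 h (adjusted p = 0.00553) and -1.33 at 72 h (adjusted p = 6.9e-05). At 72 h its lowest, middle and highest signal was 276, 335 and 471 at 97 kPa and 124, 131 and 150 at 10 kPa. The calls at 6, 48 and 72 h held under every alternative run. That at 3 h was lost with no filter and without 10 kPa replicate 1 or 3 or 97 kPa replicate 1 or 3 (adjusted p up to 0.153). In roots the mean over the 6 times was 0.27 (adjusted p = 0.0405, lost with no filter and without 10 kPa replicate 1, 2 or 3 or 97 kPa replicate 3), and the root minus shoot pressure effect was 1.08 ± 0.14 (adjusted p = 1.0e-08).

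GH3.17 was higher at 10 kPa in roots at 48 h (0.85, adjusted p = 0.0217) and 72 h (0.99, adjusted p = 0.00933). At 48 h its signal was 648 to 864 at 97 kPa and 1001 to 1713 at 10 kPa. The 48 h call was lost without 10 kPa replicate 1 or 2 or 97 kPa replicate 1, and the 72 h call without 10 kPa replicate 1 or 2 or 97 kPa replicate 2 (adjusted p up to 0.115). Both were lost with only the 6 arrays of the time (adjusted p = 0.0600 and 0.138), and that at 72 h without the 4 arrays numbered apart (adjusted p = 0.178). UGT74D1, a glucosyltransferase of auxin, was lower in shoots at 6 h (-0.83, adjusted p = 0.0287) and 48 h (-0.94, adjusted p = 0.00705). The 6 h call was lost without 10 kPa replicate 1 or 3 or any replicate at 97 kPa (adjusted p up to 0.161), and the 48 h call with only the 6 arrays and without 10 kPa replicate 1 or 2 (adjusted p up to 0.133).

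The response gene HAT2, an auxin-inducible homeodomain factor, was 1 of 3 target genes tested in roots and was called lower at 10 kPa at the late times in both tissues. In shoots at 48 h its lowest, middle and highest signal was 377, 556 and 1121 at 97 kPa and 136, 219 and 306 at 10 kPa. The effect was -1.52 ± 0.28 (adjusted p = 0.00016) and held under every alternative run. At 72 h it was -0.80 (adjusted p = 0.0432), a call that was kept in 5 of 14 alternatives and was lost without any one of the 6 replicates. In roots the effects were -0.69 at 48 h and -0.71 at 72 h (adjusted p = 0.0199 and 0.0200), against 0.54 at 1 h, which was not called (adjusted p = 0.151). The 48 h call was lost with only the 6 arrays and without 10 kPa replicate 3 or 97 kPa replicate 2 or 3, and the 72 h call with only the 6 arrays and without 10 kPa replicate 1 or 97 kPa replicate 3 (adjusted p up to 0.156). The late minus early pressure effect of HAT2 in roots was -1.08 ± 0.20 (adjusted p = 0.00055) and held under every alternative run.

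Of the kinases that act on auxin transport, PID2 was lower in roots at 72 h, with 198 to 272 at 97 kPa and 54.2 to 78.1 at 10 kPa (-1.75 ± 0.54, adjusted p = 0.0367), a call that was kept in 3 of 13 alternatives and was lost without any one of the 6 replicates. PUCHI, which like LBD16 acts in lateral root initiation, was not called in roots at any time (effects from -0.80 to 0.48, adjusted p 0.182 to 0.974). In roots at 72 h the summed photosynthesis signal was 10196 to 15500 at 97 kPa and 11842 to 21321 at 10 kPa, and the GAPDH ratio 202 to 1312 and 221 to 433, both overlapping. In shoots at 48 and 72 h the photosynthesis sums also overlapped (124921 to 183104 at 97 kPa and 125471 to 152361 at 10 kPa), while the GAPDH ratio did not. The part of the ratio in the late changes in shoots, and of the root values at 48 h given above, was not tested.

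**Figure D4:**
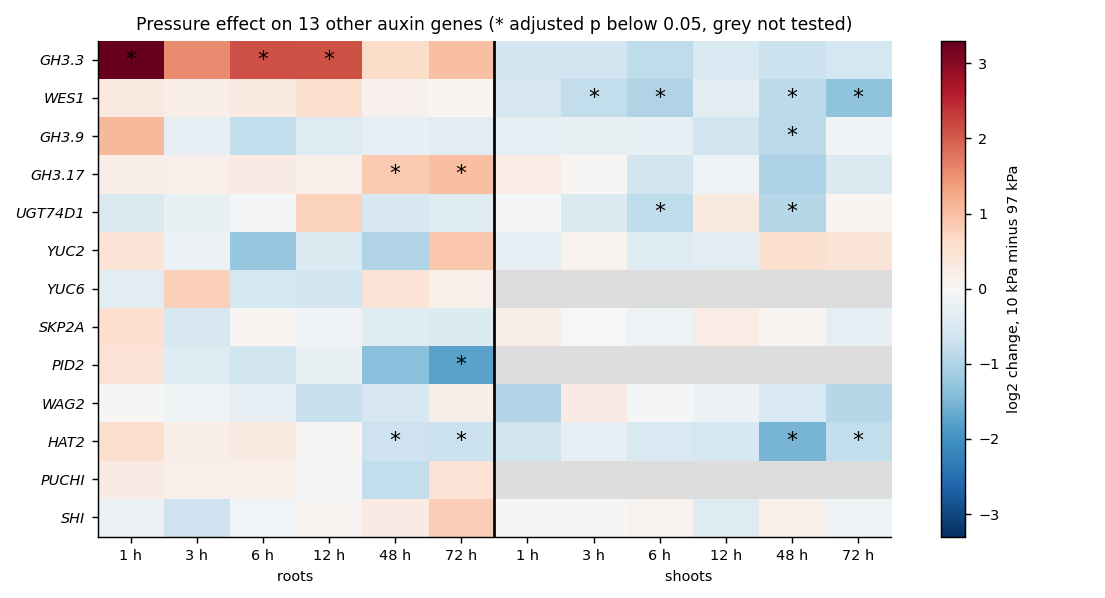
Pressure effect (log2 change, 10 kPa minus 97 kPa, colour) on 13 other auxin genes by time in roots and shoots, with a star for an adjusted p below 0.05 and grey where the gene was not tested. GH3.3 is red in roots (3.29 at 1 h) and blue in shoots, and WES1 is starred at 3, 6, 48 and 72 h in shoots.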

How the data were processed

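ATH1 arrays give 1 signal per probe set, an intensity on a linear scale that the authors deposited as MAS5 values. The submitters' processing notes name MAS5 and Affymetrix Expression Console, without versions or settings. Labelling used 100 ng of total RNA and a 3′ IVT Plus kit, per the labels' protocols. The mean signal after trimming 2% at each end was 500 on every array, and no further normalization was applied. Of 22810 probe sets, 64 are controls. Symbols came from the array annotation given with the data, which lists 1 gene for 13513 probe sets, several for 503 and none for 8730. By gene ID 13436 matched RefSeq.

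Group means were fitted to log2(signal + 8.90), the 10th percentile of all values, in limma (3.58.1, under R 4.3.3; lmFit and eBayes, trend in the prior variance). There was 1 fit per tissue (36 arrays, 24 residual degrees of freedom, 16667 probe sets in roots and 15794 in shoots) and 1 for all 72 (48 degrees, 17901). Tests were two-sided. The mean effect over times, the late minus early levels and the tissue difference at 10 kPa were added after the values were seen. Separate chambers make the replicates separate samples; their number, 3 a group, limits the precision. On simulated data with the means and spread of these arrays, at 6 h in roots 43.4% of changes of 1 and 83.6% of changes of 2 (log2) were called.

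The genes and lists were chosen with earlier results of these data known. Values are given for LBD16, LBD29, IAA29 and IAA30, for members among the 3 largest calls each way of a contrast or called in 3 times, and for up to 2 called genes each way of each list; IAA20, IAA31, IAA33 and IAA34 are described because there are only 9 members. A low-oxygen list had 3 genes with a named probe set, all 3 called higher at 1 h in both tissues. At 1 h 2.13% of probe sets were called higher in roots and 2.27% in shoots. In roots 1 of the 3 was still called higher at 72 h, beside 3.53% of probe sets. In shoots 0 of 3 were called at 12 h. There 1 of 3 was called lower at 48 h and 1 at 72 h, beside 13.4% and 10.5% of probe sets. Alternatives were quantile normalization, 2 other pseudocounts, no filter and a stricter one (60th percentile), blocks for replicate number and tube, fewer arrays, and each replicate left out. Same-numbered samples did not deviate together (correlations -0.073 to 0.0996), so numbers do not pair samples.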

Additional observations from a re-analysis of the deposited data

Results flagged for a closer look

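In 5 genes the test of the pressure effect in roots against that in shoots passed the threshold. They were 1 of 7 members tested, 3 of 5 conjugation genes and 1 of 3 target genes. None of 3 synthesis, 1 perception and 2 transport genes was called. Of all probe sets 25.9% were called in either direction and 11.1% higher. GH3.3 gave 2.43 on the log2 scale (1.78 in roots and -0.65 in shoots), WES1 1.08, GH3.17 0.77, HAT2 0.68 and IAA18 0.27. The difference for GH3.17 was lost (adjusted p = 0.161) without the 48 and 72 h arrays and (adjusted p = 0.0596) without 10 kPa replicate 1, and that for IAA18 in 8 of 14 alternatives; the others held in all 14. The late minus early pressure effect of HAT2 in roots was -1.08 and held in all 12 alternatives. IAA18 was the only one of the 9 genes among these.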

How the results depend on the processing

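For 23 counts of called members, 264 of 304 alternative counts lay within 1.5 times the main count and 40 did not. In roots at 48 h the count of 1 fell to 0 with only the 6 arrays of that time, to 0 with the stricter filter, and was 0 to 1 with a replicate left out. At 6 h in roots the count of 0 became 0 to 1 with a replicate left out. For the mean effect in roots the 2 calls were 1 with quantile normalization, 1 with no filter, 1 with the stricter filter and 0 to 2 with a replicate left out. For late minus early levels in roots at 97 kPa the 1 call was 0 with quantile normalization, 0 with the stricter filter and 0 to 1 with a replicate left out. In shoots the 3 h count was 0 to 1 with a replicate left out, and the 72 h count of 0 was 1, LBD16, with no filter. Late minus early level counts in shoots at 97 kPa were 3 with no filter and 0 to 1 with a replicate left out. At 10 kPa they were 0 to 1 with a replicate left out. The root minus shoot pressure effect had 1 call, 0 with quantile normalization, 0 with no filter, 2 with a higher pseudocount and 0 to 1 with a replicate left out. The 7 calls of level were 2 with the stricter filter at either pressure, and at 10 kPa 4 to 7 with a replicate left out. The cause was not tested where fewer genes or arrays were not the reason. No sign turned in any of the called pairs of gene and comparison. The replicate block, with numbers that do not pair the samples, left every count as it was (1 call at 48 h in roots, with an adjusted p of 0.0080 for LBD29). Changes of dim genes are limited by signal near background.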
